A study of Arabidopsis thaliana with 21 samples.

Results

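A module of 92 *Arabidopsis* genes was chosen by measured values, out of 33655 features with counts. Each of its members was higher after red light than in darkness in both *phyB-GFP* lines, and lower in both *cop1-4* and *spaQ* than in Col-0 under red light. Levels are given as CPM, the reads of a gene scaled to a common library total of 1e6. A gene had to reach a group mean of at least 5 CPM, which 16334 features did. Its ratio (red + 1)/(dark + 1) had to show a 1.5-fold rise in both lines, *phyB-GFP FL* and *phyB-GFP ΔC*. Its log2((mutant + 1)/(Col-0 + 1)) in red light had to be at most -1, a 2-fold decrease, in *spaQ* and in *cop1-4*. Those 4 contrasts made the list and are therefore described without a test.

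The libraries come from whole seedlings, 3 days old, that had received far-red light (10 µmol m-2 s-1) during germination and were then kept in darkness. The red samples were exposed to red light for 1 h. The labels give it as 8 µmol m-2 s-1, whereas the methods of the study give a lower fluence rate. There were 7 groups of 3 libraries. The wild type Col-0, the weak allele *cop1-4* and *spaQ*, in which all of *SPA1*, *SPA2*, *SPA3* and *SPA4* carry mutations, were sampled in red light. The transgenic lines carry phyB fused to GFP, either as the full-length protein (FL) or without its C-terminal part (ΔC), in plants that lack their own phyA and phyB, and were sampled in darkness and in red light. The promoter of the transgenes is not given in the sources used here, nor is which of the independent lines was sequenced. For Col-0 and the mutants, libraries from darkness were not analysed here. The mutant side of the module therefore shows a lower level under red light and not a lost induction. The label of the module as genes that need COP1 and SPA for their induction could not be checked from these libraries. The study lists the genes that responded to red light in each of these genotypes, but those lists were not used for such a check here. Nothing in the labels says that the libraries of a group came from separate cultures, so p-values measure the spread between these libraries.

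Phytochrome B is a photoreceptor that red light converts to its active form, which moves into the nucleus and acts on the PIF transcription factors. COP1 and the SPA proteins form a ubiquitin ligase complex that in darkness marks light-promoting transcription factors such as HY5 for degradation. In red light the same complex also takes part in the removal of PIF1. Early red-responsive genes include transcription factors of the B-box family, the MYB-like factors of the circadian clock and enzymes of hormone inactivation.

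The libraries held 15678019 to 29523833 counts, so that the detection floor of 3 counts stood at 0.102 to 0.191 CPM. *SPA1* was at 36.0, 36.0 and 39.8 CPM in the *spaQ* libraries against 339 to 352 CPM in Col-0, and *SPA3* was at 21.3 to 23.8 CPM against 161 to 170 CPM. *COP1* was at 35.5 to 38.5 CPM in *cop1-4* and at 73.9 to 77.1 CPM in Col-0. *SPA2* (42.9 to 48.8 CPM in *spaQ*, 47.9 to 54.7 CPM in Col-0) and *SPA4* (59.0 to 64.0 against 56.8 to 59.5 CPM) were not lower to that extent, and reads outside a disrupted part do not check a label. *PHYB* was at 911 to 1559 CPM in the *phyB-GFP* libraries and at 144 to 153 CPM in Col-0. The lowest of these, FL red replicate 3, also stood apart from the other FL red libraries over all genes, with a chi-square per gene of 19.2 and 30.7 against 4.50 between the other pair. Between Col-0 and the mutants the markers of several tissues differed as well. The summed level of the 5 endodermis markers was 492 to 508 CPM in the wild type, against 149 to 167 CPM in *cop1-4* and 105 to 113 CPM in *spaQ*, and that of the 3 shoot epidermis markers was 1077 to 1146, 485 to 517 and 288 to 298 CPM. The 9 xylem and phloem markers summed to 474 to 485, 259 to 260 and 168 to 181 CPM, and the 5 seed storage markers to 199.9 to 404.5, 1.76 to 124 and 978.5 to 1831 CPM in the same order. Stomatal markers summed to 60.8 to 65.7, 64.2 to 69.1 and 51.8 to 54.0 CPM, and root hair markers to 34.1 to 38.0, 59.4 to 74.7 and 103.4 to 122 CPM. Single markers did not all follow these sums. The limits of the rule in both mutants were met by 4 of the 5 endodermis markers, 5 of the 9 xylem and phloem markers and 1 of the 3 shoot epidermis markers. The endodermis marker *SCR* had means of 68.5, 68.9 and 66.2 CPM in Col-0, *cop1-4* and *spaQ*. The seed marker *CRB* had 15.8, 0.978 and 7.71 CPM. The part of these marker differences in the lower level of the members was not tested. Fewer cells of a type, less RNA per cell and a change in the marker genes themselves cannot be told apart in whole seedlings.

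To look for sequences that the members share, the 250 bases before and 50 bases after each gene start in TAIR10.1 were searched on both strands. The G-box (CACGTG), a sequence bound by HY5, the PIFs and other bZIP and bHLH proteins, was present in 22 of 92 members, or 23.9%. It was present in 7.68% of the 27443 promoters of protein-coding genes, in 9.36% of those of expressed genes and in 20.9% of the 182 other red-induced genes. The related PIF-binding E-box (CACATG) was in 19.6% of members, 20.3% of the other red-induced genes and 12.9% of all promoters. The auxin response element (TGTCTC) was in 23 of 92 members and 14.2% of all promoters, and SORLIP1 (GCCAC), a sequence over-represented in light-induced promoters that can share bases with a G-box, in 29.3% and 18.9%. In the other red-induced genes SORLIP1 was more frequent than in the members, at 42.3%, and the auxin response element less frequent, at 15.9%. The evening element (AAATATCT) was in 8.70% of members and 5.65% of all promoters and the CCA1-binding site (AAAAATCT) in 11 of 92 members and 7.88%. The I-box (GATAAG) was in 11 members and 14.65% of all promoters, the GT1 site (GGTTAA) in 14.1% and 16.7%, the TATA box (TATAAA) in 54.3% and 52.2%, the L1 box (TAAATGCA or TAAATGTA) in 6.52% and 5.10% and the W-box (TTGACC or TTGACT) in 30.4% and 32.4%. The stretches below show the G-box, in capitals, in 7 members: 4 regulators of light and clock signalling and 3 genes of abscisic acid and cold responses. They are given 5′ to 3′ on the strand of the gene, all upstream of the gene start, from RefSeq TAIR10.1. By function, the G-box was in 4 of 9 genes of protein turnover and kinases, 6 of 14 light and clock regulators and 6 of 14 genes of abscisic acid and stress. It was in 3 of 15 genes of other or unknown function, 2 of 16 of metabolism and the cell wall and 1 of 12 other transcription factors. It was in 0 of 7 transporters and 0 of 5 other genes of hormones and signal peptides.
*AT3G12320*, chr3:3923325-3923404, plus strand: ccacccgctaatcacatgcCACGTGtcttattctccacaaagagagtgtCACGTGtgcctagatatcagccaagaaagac
*LHY*, chr1:37912-37991, minus strand: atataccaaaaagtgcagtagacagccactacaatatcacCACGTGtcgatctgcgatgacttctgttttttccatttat
*RVE2*, chr5:14753209-14753288, minus strand: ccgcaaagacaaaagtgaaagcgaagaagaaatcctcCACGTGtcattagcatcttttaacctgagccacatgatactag
*BBX30*, chr4:8708731-8708810, plus strand: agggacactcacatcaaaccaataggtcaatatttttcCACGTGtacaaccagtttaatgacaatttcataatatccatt
*GBF3*, chr2:19000030-19000109, plus strand: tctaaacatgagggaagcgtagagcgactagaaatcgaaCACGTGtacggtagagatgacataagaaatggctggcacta
*PP2CA*, chr3:3586007-3586086, minus strand: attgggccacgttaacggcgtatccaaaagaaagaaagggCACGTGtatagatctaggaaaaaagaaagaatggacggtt
*CBF2*, chr4:13016296-13016375, minus strand: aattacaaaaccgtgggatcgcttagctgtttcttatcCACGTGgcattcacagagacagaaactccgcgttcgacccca

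*HY5* and *ABCI21*, on which several results below turn, have no G-box in this window. Their last 150 upstream bases are shown with a PIF-binding E-box (read as CATGTG on this strand) in capitals for *HY5* and the SORLIP1 letters (read as GTGGC) in capitals for *ABCI21*. A match is a description of the letters and not of a bound site.
*HY5*, chr5:3595074-3595223, minus strand: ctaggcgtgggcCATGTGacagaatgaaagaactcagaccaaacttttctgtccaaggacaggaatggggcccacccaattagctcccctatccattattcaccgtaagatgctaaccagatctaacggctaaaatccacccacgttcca
*ABCI21*, chr5:17755769-17755918, minus strand: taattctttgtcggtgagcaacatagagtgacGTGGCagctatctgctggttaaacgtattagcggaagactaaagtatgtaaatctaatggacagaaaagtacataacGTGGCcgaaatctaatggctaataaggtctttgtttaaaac

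Of the 274 genes that met the red light limits in both lines, 92 (33.6%) were members. The same 92 are 4.78% of the 1925 genes that met the limits in both mutants, and those 1925 are 11.8% of all genes that reached 5 CPM. Another 20 of the 274 red-induced genes met the limit only in *spaQ*, 27 only in *cop1-4*, and 25 were at least 2-fold higher than Col-0 in both mutants. The summed level of the 92 members was 1892 to 2006 CPM in FL dark and 4747 to 5197 CPM in FL red. It was 2070 to 2235 CPM in ΔC dark and 4065 to 4253 CPM in ΔC red. Under red light Col-0 held 9766 to 9864 CPM, whereas *cop1-4* held 2246 to 2284 CPM and *spaQ* 2311 to 2373 CPM. No library of a mutant thus reached the members' summed level in any red light library of the *phyB-GFP* lines, while each stood above that of every dark library of those lines.

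The median member rose by a log2 ratio of 1.14 in FL and 0.90 in ΔC, and was at -1.91 in *spaQ* and -1.84 in *cop1-4* against Col-0. The medians over all genes that reached 5 CPM were -0.01, -0.01, -0.22 and -0.19. With TMM factors, which set library sizes by the bulk of genes, these last medians became 0.01 and 0.01 and those of the members -1.70 and -1.68. Col-0 under red light was above FL red in 85 of 92 members, with a median log2 ratio of 0.90 against -0.06 over all genes at 5 CPM and 0.79 over the other 182 red-induced genes. Col-0 also carries phyA, which the *phyB-GFP* plants lack, has a lower *PHYB* level and holds no transgene, and high Col-0 values favour membership. The parts of these in the higher Col-0 level cannot be told apart and were not tested.

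**Figure D1:**
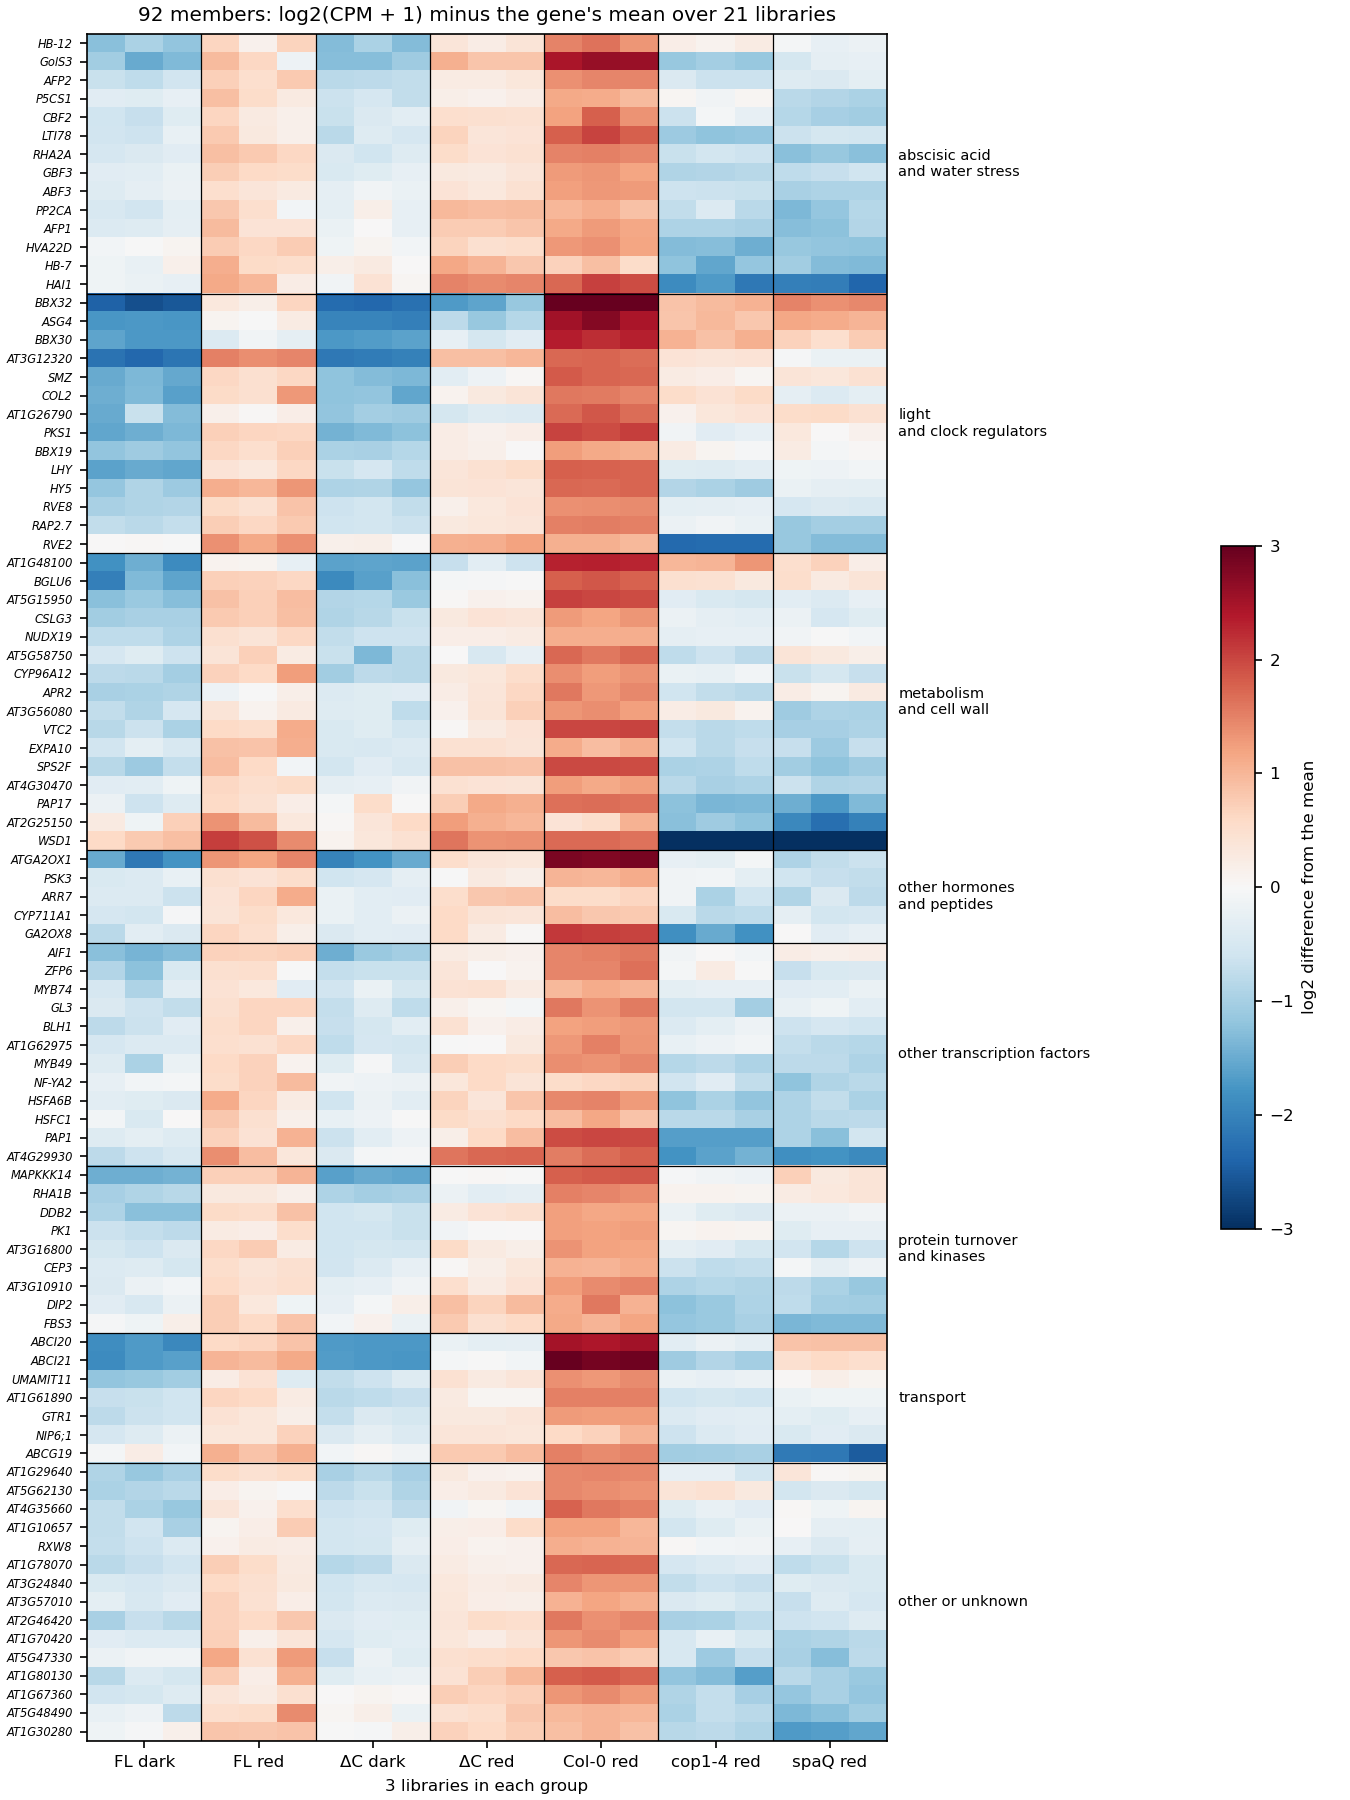
The heatmap shows log2(CPM + 1) of each of the 92 members in each of 21 libraries, minus the mean of the gene over all libraries, with members sorted by known function. Red is above and blue below the mean of the gene. Members are mostly red in the 3 Col-0 columns, and *WSD1*, *RVE2* and *HAI1* are blue in all 6 mutant columns.

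To describe the members by what they do, they were sorted after their values had been seen into 14 light and clock regulators, 14 genes of abscisic acid and water or cold stress, 5 other genes of hormones and signal peptides, 12 other transcription factors, 7 transporters, 16 genes of metabolism and the cell wall, 9 of protein turnover and kinases, and 15 others. Each group was thus named from gene annotation but with the data known, and no test was run on a group. The genes named one by one are those picked by level, by size of the ratios, by nearness to a limit, by the gene lists or by the tests, and the remaining ones were chosen after their values were seen.

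Among the light and clock regulators, *HY5* encodes the bZIP factor that COP1 marks for degradation. It was at 25.03, 30.1 and 26.1 CPM in FL dark and at 121, 115 and 144 CPM in FL red. In ΔC it was at 29.6, 29.9 and 24.99 CPM in darkness and at 74.4, 76.0 and 72.8 CPM in red light. Under red light Col-0 had 190, 186 and 193 CPM, *cop1-4* 30.6, 29.1 and 26.7 CPM and *spaQ* 49.4, 46.8 and 45.9 CPM. The *cop1-4* libraries thus overlapped the dark libraries of both *phyB-GFP* lines, and the *spaQ* libraries lay between the dark and red libraries.

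*LHY*, which encodes a MYB-like repressor at the core of the clock, was at 47.5 to 50.4 CPM in FL dark and at 194, 182 and 224 CPM in FL red. Its ΔC dark libraries were at 91.5, 103 and 85.4 CPM, above all FL dark libraries, and its ΔC red libraries at 187, 202 and 213 CPM. Col-0 was at 511, 496 and 495 CPM, *cop1-4* at 113, 111 and 117 CPM and *spaQ* at 134, 132 and 137 CPM. For *RVE2*, a related MYB-like factor, the order was different. Its FL and ΔC libraries in darkness held 146 to 149 and 147 to 164 CPM, and those in red light 381, 321 and 380 CPM and 305, 312 and 337 CPM. The Col-0 libraries, at 305, 307 and 289 CPM, were below those of FL red and overlapped those of ΔC red. *cop1-4* was at 28.3, 28.6 and 28.6 CPM and *spaQ* at 65.6, 58.4 and 59.0 CPM, both below every dark library.

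*AT3G12320*, known as *LNK3*, a member of a small family of light-induced clock coactivators, had the largest FL ratio of all members, 3.70. It was at 5.76, 5.16 and 5.94 CPM in FL dark and at 88.3, 81.6 and 85.8 CPM in FL red. ΔC held 6.14, 6.40 and 6.69 CPM in darkness and 58.3, 57.6 and 61.6 CPM in red light, below every FL red library. Col-0 had 102, 104 and 100.2 CPM, *cop1-4* 40.6, 39.3 and 40.6 CPM and *spaQ* 29.6, 26.3 and 26.5 CPM. Every mutant library was therefore above the dark libraries of the *phyB-GFP* lines and below their red libraries.

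*RVE8*, whose protein activates evening clock genes, rose from a mean of 20.5 to 62.4 CPM in FL and from 25.3 to 49.1 CPM in ΔC, with 106 CPM in the wild type against 32.8 CPM (*cop1-4*) and 28.5 CPM (*spaQ*). *PKS1*, which encodes a phytochrome-binding protein of phototropism, rose from 24.5 to 109 CPM in FL and from 26.7 to 77.9 CPM in ΔC, with 282 CPM in the wild type against 58.7 CPM (*cop1-4*) and 76.6 CPM (*spaQ*). *RAP2.7* and *SMZ* encode AP2-type repressors of flowering. *RAP2.7* had means of 379, 118 and 62.6 CPM in Col-0, *cop1-4* and *spaQ*, and *SMZ* of 81.7, 26.2 and 30.6 CPM.

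*BBX32* encodes a B-box protein that counteracts HY5-dependent signalling. It had 3, 0 and 1 reads in the FL dark libraries and 110, 108 and 158 reads, or 6.64, 5.94 and 8.60 CPM, in FL red. ΔC held 0.249, 0.203 and 0.302 CPM in darkness and 0.893, 1.06 and 1.80 CPM in red light. In Col-0 it was at 71.3, 70.1 and 75.6 CPM, in *cop1-4* at 10.2, 11.0 and 11.8 CPM and in *spaQ* at 16.4, 15.1 and 15.7 CPM. The mutant libraries were below those of Col-0 but above every library of both *phyB-GFP* lines. *BBX30*, another B-box gene, was likewise higher in every mutant library than in any library of the *phyB-GFP* lines, with 2, 0 and 0 reads in FL dark, 1.45 to 2.03 CPM in FL red, and 14.3 to 15.8 CPM in Col-0, against 4.995 to 5.82 CPM (*cop1-4*) and 3.69 to 4.56 CPM (*spaQ*). *BBX19* and *COL2*, a CONSTANS-like gene, lay near the limits and are given below.

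The group of abscisic acid and water or cold stress held transcription factors, phosphatases and protective proteins. *ABF3*, a bZIP factor that binds abscisic acid response elements, was at 115, 124 and 132 CPM in FL dark and at 211, 192 and 182 CPM in FL red. ΔC was at 124, 138 and 131 CPM and at 199, 186 and 207 CPM. Col-0 held 351, 372 and 363 CPM, *cop1-4* 97.4, 95.9 and 92.9 CPM and *spaQ* 76.0, 78.6 and 77.6 CPM. For this gene both mutants under red light were below every dark library of the *phyB-GFP* lines.

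*HAI1* encodes a clade A protein phosphatase that restrains abscisic acid signalling. It was at 5.499, 5.11 and 4.96 CPM in FL dark and at 14.5, 13.1 and 7.18 CPM in FL red, and at 5.61, 8.50 and 6.39 CPM in ΔC dark and 18.7, 17.8 and 18.6 CPM in ΔC red. Col-0 had 22.1, 28.4 and 26.3 CPM, *cop1-4* 0.917, 1.17 and 0.604 CPM and *spaQ* 0.699, 0.674 and 0.365 CPM. The mutants were again below every other library. A second phosphatase of the clade, *PP2CA*, was at 53.3 to 61.6 CPM in Col-0, whereas *cop1-4* had 15.7 to 21.3 CPM and *spaQ* 10.6 to 15.2 CPM. Its FL red libraries were at 50.6, 41.0 and 27.0 CPM, of which replicate 3 is again the lowest.

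*LTI78*, also known as *RD29A*, is induced by cold and drought. It was at 55.9, 53.7 and 71.4 CPM in FL dark, 143, 101 and 92.9 CPM in FL red, 47.1, 63.4 and 58.5 CPM in ΔC dark and 133, 106 and 111 CPM in ΔC red. Col-0 was at 288, 341 and 290.1 CPM, *cop1-4* at 38.3, 35.7 and 36.6 CPM and *spaQ* at 53.1, 57.0 and 56.3 CPM. The *spaQ* libraries overlapped the dark libraries and the *cop1-4* libraries were below them. *GolS3*, a galactinol synthase of the cold response, and *CBF2*, which encodes an activator of cold-response genes, were low in darkness. *GolS3* rose from a mean of 1.51 to 7.86 CPM in FL and from 1.64 to 10.4 CPM in ΔC, with 34.8, 1.84 and 3.79 CPM in Col-0, *cop1-4* and *spaQ*. *CBF2* rose from 1.06 to 2.89 CPM and from 1.18 to 3.19 CPM, with 7.33, 1.45 and 0.536 CPM in the same order.

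The library that stood apart, FL red replicate 3, was the lowest of its group in 10 of these 14 genes and the highest in 10 of the 14 light and clock regulators. The summed level of the 14 genes of abscisic acid and stress was 706.7 to 921.8 CPM in FL red and 1391 to 1534 CPM in Col-0, and 296 to 346 CPM in the 6 mutant libraries. Over all 92 members, replicate 3 was the lowest in 37 and the highest in 43. Without it the rule gave 96 members, the 92 among them.

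**Figure D2:**
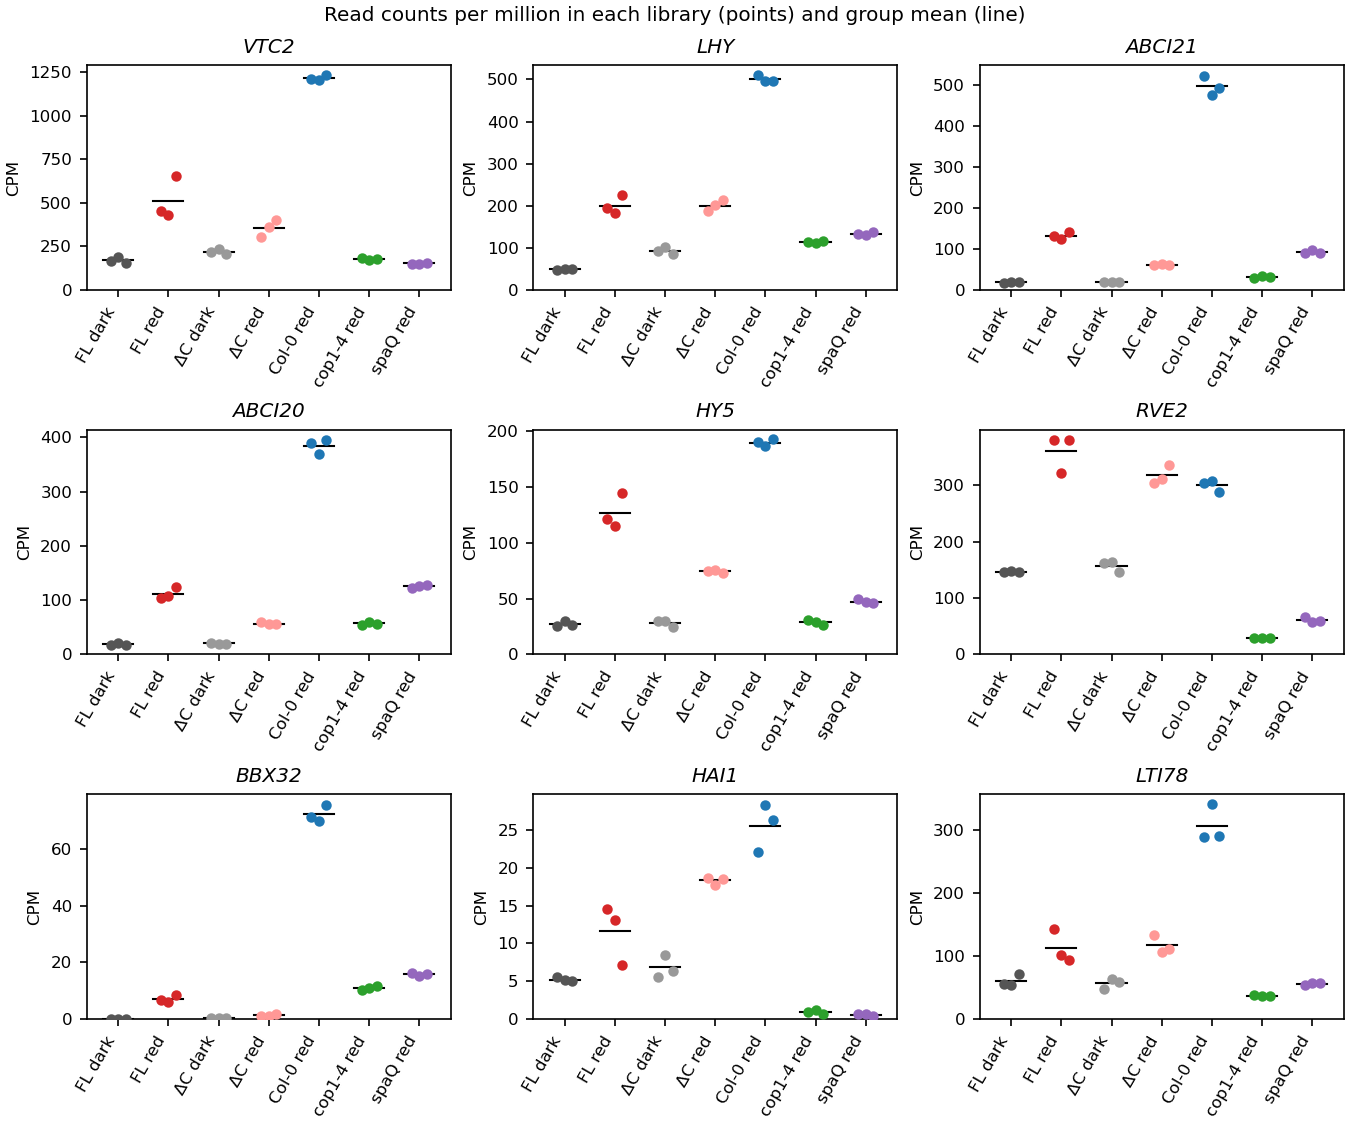
The plots give the CPM of 9 members in each of the 3 libraries per group, with a line at the group mean and each vertical axis starting at 0. Col-0 is the highest group for 8 of the 9 genes, and for *RVE2* its libraries, at 289 to 307 CPM, lie below those of FL red. *HAI1* is under 1.2 CPM in every mutant library.

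Of the transporters, *ABCI20* and *ABCI21* encode soluble ATP-binding proteins of the ABC family. *ABCI21* was at 16.6, 19.2 and 20.02 CPM in FL dark and at 132, 124 and 142 CPM in FL red. In ΔC it was at 19.6, 18.9 and 18.5 CPM and at 61.4, 63.7 and 60.8 CPM. Col-0 had 523, 476 and 493 CPM, *cop1-4* 29.9, 34.7 and 31.2 CPM and *spaQ* 89.4, 97.1 and 91.2 CPM. The groups did not overlap, apart from the dark libraries of the FL and ΔC lines. *ABCI20* differed in that *spaQ*, at 123.3, 126 and 127 CPM, overlapped FL red, at 103.2, 107 and 124 CPM, and *cop1-4* overlapped ΔC red. Its ΔC red libraries were at 55.7 to 59.1 CPM, those of the wild type at 370.1 to 395 CPM and those of *cop1-4* at 55.0 to 60.1 CPM. *AT1G61890*, a member of the MATE efflux family, had means of 86.3 and 193 CPM in FL, 80.1 and 149 CPM in ΔC, and 388, 90.14 and 122 CPM in Col-0, *cop1-4* and *spaQ*.

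Among the metabolic genes, *VTC2* encodes the GDP-L-galactose phosphorylase that controls the synthesis of ascorbate. With 555 CPM per kilobase of exon it had the highest Col-0 level of the 92 members on that scale, followed by *ABCI21* at 359 and *RVE2* at 306. It was at 1208, 1205 and 1235 CPM in Col-0, at 184, 172 and 176 CPM in *cop1-4* and at 149, 149 and 157 CPM in *spaQ*. FL held 169, 190 and 154 CPM in darkness and 453, 433 and 652 CPM in red light, and ΔC 218, 233 and 206 CPM and 306, 359 and 399 CPM. The mutants thus stood within or below the range of the dark libraries. *AT5G15950* encodes an S-adenosylmethionine decarboxylase of polyamine synthesis, and rose from 28.1 to 120 CPM in FL and from 34.1 to 70.6 CPM in ΔC. Col-0 was at 269 CPM, *cop1-4* at 48.7 CPM and *spaQ* at 52.9 CPM. *SPS2F*, a sucrose phosphate synthase, was at 143 CPM in Col-0 and at 18.8 and 16.02 CPM in *cop1-4* and *spaQ*.

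*WSD1*, which encodes a wax ester synthase of the cuticle, had the lowest mutant ratios, -4.67 in each mutant. Not a single read was counted for it in any of the 6 mutant libraries. Col-0 was at 24.9, 24.7 and 23.8 CPM, at least 146-fold higher than *cop1-4* and at least 186-fold higher than *spaQ* at the floor of 3 counts per library. FL held 10.9, 12.7 and 13.9 CPM in darkness and 32.4, 29.0 and 20.4 CPM in red light, and ΔC 7.60, 9.01 and 9.97 CPM and 23.0, 19.1 and 19.6 CPM. Red light libraries of both lines overlapped those of Col-0 or came close to them. *PAP1* (*MYB75*), which encodes an activator of anthocyanin synthesis, likewise had no read in *cop1-4*, was at 0.657, 0.315 and 1.14 CPM in *spaQ* and at 11.1, 11.5 and 11.3 CPM in Col-0.

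Of the hormone enzymes, *ATGA2OX1* and *GA2OX8* encode 2-oxidases that inactivate gibberellins. *ATGA2OX1* was at 0.925, 0.228 and 0.577 CPM in FL dark and 12.6, 11.4 and 14.1 CPM in FL red, and at 0.355, 0.576 and 0.906 CPM and 6.89, 5.98 and 5.93 CPM in ΔC. Col-0 was at 37.97, 36.5 and 38.2 CPM, *cop1-4* at 3.61, 3.47 and 4.28 CPM and *spaQ* at 1.89, 2.25 and 2.51 CPM. *GA2OX8* had means of 2.14 and 5.10 CPM in FL, 2.47 and 4.53 CPM in ΔC and 17.8 CPM in Col-0. *ARR7*, a type-A response regulator that dampens cytokinin signalling, rose from 2.04 to 6.18 CPM in FL and from 2.50 to 6.09 CPM in ΔC, with 5.40, 1.99 and 1.63 CPM in Col-0, *cop1-4* and *spaQ*. *EXPA10*, an expansin that loosens cell walls, was at 48.2, 13.8 and 12.6 CPM in the same groups. Its FL and ΔC means rose from 16.6 to 45.0 CPM and from 16.5 to 31.3 CPM.

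The limits cut through a continuous range. Just inside the FL limit were *AT2G25150*, an acyltransferase family gene, at 0.61, *ABF3* at 0.65 and the heat shock factor gene *HSFC1* at 0.67. Just outside, with every other limit met, were *NCED3*, a key enzyme of abscisic acid synthesis, at 0.56, *AT3G27250* at 0.54 and *AT2G41870* at 0.53. In ΔC the members *AT5G48490*, *ABF3* and *RXW8* were inside at 0.59 each, and *AT3G56260*, *AT1G58460* and *AT3G03341* outside at 0.58 each. In *spaQ*, *BBX19* was inside at -1.08, the RING ligase gene *RHA1B* at -1.15 and the Nudix hydrolase gene *NUDX19* at -1.15. *LTI65* and the clock output gene *CDF2* at -0.96 each and *UGT84A2* at -0.93 were outside. In *cop1-4* the members *COL2* and *AT5G62130* were inside at -1.02 each and *BBX19* at -1.06. The clock gene *CCA1*, the closest relative of *LHY*, was outside at -0.998, with 186 CPM in *cop1-4* and 372 CPM in Col-0, as were *COR413-PM1* at -0.96 and *AT3G61750* at -0.95. When each same-numbered set of libraries had to meet the limits as well, 48 members were left.

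Of the lists of pathway genes, the clock list had 18 of its 32 genes among the red-induced ones and 4 of these as members, *LHY*, *RVE2*, *RVE8* and *AT3G12320*. Of the others, *PRR7*, *PRR5*, *LNK2*, *ELF4*, *RVE7* and *CDF1* had higher means in both mutants than in Col-0 (485.6 and 394 against 85.8 CPM for *PRR7*). The means of *CCA1*, *RVE1*, *PRR9*, *GI*, *LNK1*, *LNK4* and *CDF2* were lower in both mutants, and that of *CDF3* was higher in *cop1-4* alone. Of 33 light signalling genes 9 were red-induced and *HY5* alone was a member, while its homologue *HYH* was at 62.4 CPM in *cop1-4* and 89.8 CPM in *spaQ* against 53.3 CPM in Col-0. None of the 12 red-induced genes among 26 of photosynthesis was a member. No auxin gene of 27 was red-induced, although 17 were low in both mutants. The gibberellin list gave 2 members of 21 genes, cold stress 2 of 14, cuticle and wax 1 of 39, flavonoids 1 of 19, cell wall growth 1 of 24 and cytokinin response 1 of 10. Ethylene and hook, jasmonate and the 6 lists of tissue markers gave none. The lists were drawn up with earlier results of these data known.

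To ask whether the members were equally low in the mutants, *spaQ* and *cop1-4* were compared under red light. The rule did not use this contrast, although both of its sides entered the rule. By the quasi-likelihood test of edgeR (Benjamini-Hochberg adjusted) and a 2-fold limit, 7 of 92 members were higher in *spaQ* (7.61%, against 2.88% of all 20396 genes tested) and 4 were lower (4.35%, against 5.63%). Of the other red-induced genes 21 of 182 were higher (11.5%) and 10 lower (5.49%), both larger shares than among the members. The median log2 difference was 0.02 for the members, 0.18 for the other red-induced genes and -0.00 for all genes. Without the 2-fold limit 33 members were higher and 32 lower, where 26.7% and 26.1% of all genes tested were called.

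*ABCI21* was 1.58 ± 0.06 (SE) higher in *spaQ* on the log2 scale (adjusted p = 8.5e-17, edgeR) and *ABCI20* 1.18 ± 0.05 higher (adjusted p = 1.1e-15), with no overlap of the libraries given above. *RVE2* was 1.15 ± 0.06 higher (adjusted p = 2.9e-14). *GA2OX8* was at 0.244, 0.561 and 0.275 CPM in *cop1-4* and at 3.49, 2.52 and 2.74 CPM in *spaQ*, a log2 difference of 3.02 ± 0.27 (adjusted p = 7.0e-10, edgeR). *AT5G58750*, an NAD(P)-binding protein gene, was at 5.196, 5.81 and 5.11 CPM against 12.8, 11.9 and 10.9 CPM, a difference of 1.19 ± 0.10 (adjusted p = 5.0e-10, edgeR). *GolS3* and *PAP1* completed the members that were higher. For *PAP1*, without a read in *cop1-4*, *spaQ* was at least 4.22-fold higher at the floor.

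The members lower in *spaQ* were *ABCG19*, a half-size ABC transporter gene, *AT3G56080*, a methyltransferase family gene, *AT2G25150* and *CBF2*. *ABCG19* was at 20.4, 20.9 and 21.6 CPM in *cop1-4* and 9.204, 8.90 and 6.84 CPM in *spaQ*, a log2 difference of -1.28 ± 0.09 (adjusted p = 8.8e-12, edgeR). *AT3G56080* was at 9.05, 9.68 and 8.35 CPM and 3.16, 3.55 and 3.47 CPM, a difference of -1.36 ± 0.11 (adjusted p = 2.5e-10, edgeR). *CBF2* was lower by -1.39 ± 0.34 (adjusted p = 0.0013, edgeR) at levels under 2 CPM in each mutant library.

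**Figure D3:**
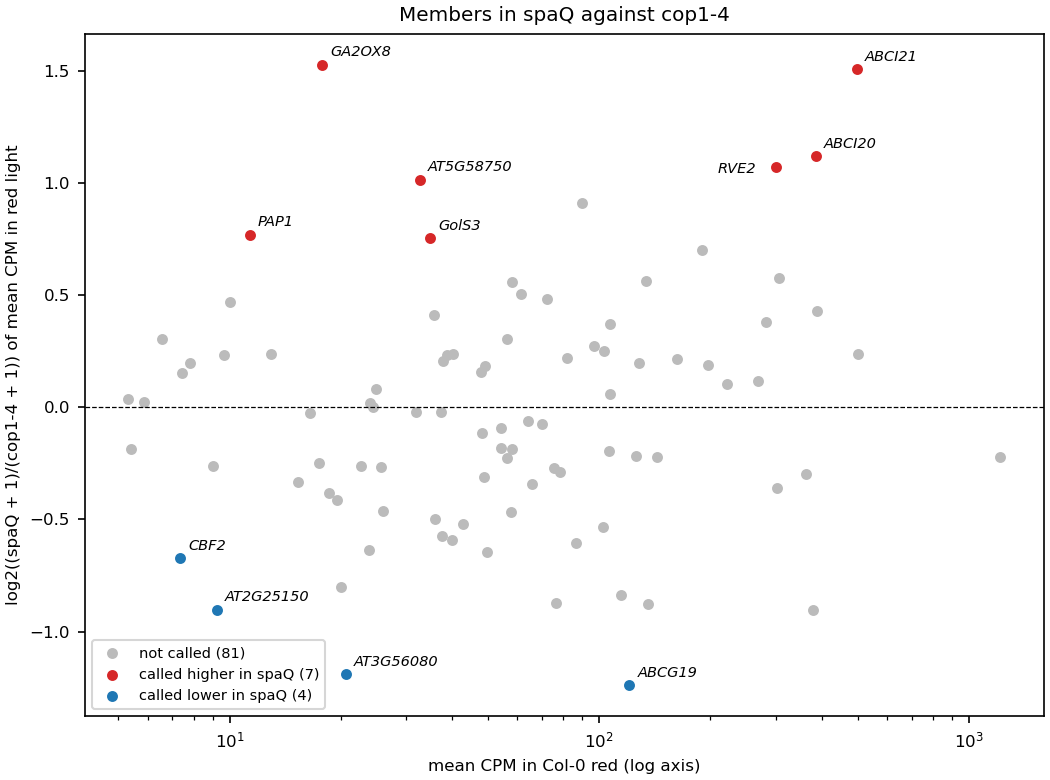
Each point is one of the 92 members, with its mean CPM in Col-0 under red light on a log axis and log2((*spaQ* + 1)/(*cop1-4* + 1)) of the group means on the vertical axis. The 7 members called higher and the 4 called lower in *spaQ* are coloured and named, and the other 81 lie on both sides of 0. The added constant draws weakly expressed members such as *PAP1* and *CBF2* towards 0.

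The ΔC and FL lines were compared in darkness, in red light and for the response itself, in the 12 *phyB-GFP* libraries. The labels name no independent lines of a construct. The loss of the C-terminal part therefore cannot be told apart from other differences between the transgenic lines. In darkness 3 of 92 members were higher in ΔC than in FL by over 1.5-fold (3.26%, against 0.587% of the 20459 genes tested). None was lower (against 0.601%), with 4 lower at an unadjusted p under 0.05 and none by DESeq2. Without the fold limit 5 members were higher (against 0.802% of all genes) and none lower (against 1.08%). Of the other red-induced genes 9 of 182 were higher (4.95%) and 1 lower. Both dark levels entered the rule, so nothing is read from the distance to the shares over all genes. The median log2 difference was 0.10 for the members, 0.18 for the other red-induced genes and 0.00 for all genes. *LHY*, at the levels given above, was higher by 0.92 ± 0.09 (adjusted p = 0.00017, edgeR). *APR2*, an enzyme of sulfate assimilation, was at 16.1, 16.2 and 16.7 CPM in FL and 24.0, 24.7 and 25.2 CPM in ΔC, a difference of 0.59 ± 0.11 (adjusted p = 0.017, edgeR). *DDB2*, which encodes a protein of DNA damage recognition, was at 10.5, 8.26 and 8.13 CPM and 13.6, 14.2 and 12.9 CPM, a difference of 0.59 ± 0.13 (adjusted p = 0.034, edgeR). *APR2* and *DDB2* stood at the fold limit, and each failed to pass in 8 of the 12 fits without 1 library. *LHY* alone was called without FL dark replicate 2, FL red replicate 1, ΔC dark replicate 2 or 3, or ΔC red replicate 1 or 2.

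In red light 10 of 92 members were lower in ΔC (10.9%, against 1.08% of all genes tested) and none was higher (against 0.596%). Both sides of this contrast entered the rule, so nothing is read from the distance to the share over all genes. Among the other red-induced genes the share called lower was 19.2%, larger than among the members. At an unadjusted p under 0.05, 8 were higher, and DESeq2 called *AT4G29930*, a bHLH gene, and *HAI1* higher. Without the fold limit 24 members were lower (against 1.81% of all genes) and 1 was higher (against 1.11%). The median log2 difference was -0.24 for the members, -0.34 for the other red-induced genes, of which 35 of 182 were lower and none higher, and -0.01 for all genes. *BBX32* differed by -2.47 ± 0.27 (adjusted p = 0.00027, edgeR), *ASG4*, a MYB-like gene related to *LHY*, by -1.31 ± 0.16 (adjusted p = 0.00059) and *ABCI21* by -1.11 ± 0.07 (adjusted p = 7.2e-06). *ABCI20* was lower by -0.98 ± 0.08 (adjusted p = 3.8e-05, edgeR), the kinase gene *MAPKKK14* by -0.85 ± 0.09 (adjusted p = 0.00016), *HY5* by -0.78 ± 0.10 (adjusted p = 0.0008) and *AT5G15950* by -0.77 ± 0.08 (adjusted p = 0.00026). *MAPKKK14* was at 61.9, 61.2 and 76.2 CPM in FL and 36.6, 38.0 and 36.9 CPM in ΔC. *ATGA2OX1* (-1.04), *BGLU6* (-0.76) and *SMZ* (-0.75) were the remaining members lower in ΔC. *BGLU6* did not pass in 7 of the 12 fits without 1 library or with the replicate block (adjusted p up to 0.155, edgeR), and *ATGA2OX1* did not pass without ΔC red replicate 2 or 3 (adjusted p up to 0.0933). In none of these 10 genes did the FL and ΔC libraries in red light overlap. The 5 seed storage markers summed to 275 to 806 CPM in FL red and 3.01 to 58.2 CPM in ΔC red, and their part in these differences was not tested.

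The response to red light itself was compared as the interaction of line and light, since the rule held both responses above one limit without setting which was larger. It was smaller in ΔC for 9 of 92 members (9.78%, against 0.103% of all genes tested) and larger for none (against 0.0%), with none larger at an unadjusted p under 0.05 or by DESeq2. All 21 genes called in this test were among the 274 red-induced genes, 9 as members and 12 of the other 182. The rule required a response in both lines, so nothing is read from the distance to the share over all genes. At an unadjusted p under 0.05 it was smaller in 34 members. In either direction, 115 of the other 182 red-induced genes and 925 of all 20459 genes passed that limit. The sign was negative in 81 of 92 members, in 170 of the other 182 and in 10464 of all genes. The median difference was -0.27 on the log2 scale against -0.55 for the other red-induced genes, of which 6.59% were called, and -0.00 for all genes. By sign and median the difference was thus larger in the other red-induced genes than in the members. The limit on the ΔC response held for both sets, and it leaves little room for a negative interaction where the FL response is small. Nothing is therefore read from the distance between the members and the other red-induced genes. The 9 members were *ABCI21* (-1.13 ± 0.11, adjusted p = 0.0023, edgeR), *ABCI20* (-1.09 ± 0.12), *AT5G15950* (-1.04 ± 0.12), *SMZ* (-0.94 ± 0.15), *LHY* (-0.93 ± 0.13), *AT3G12320* (-0.72 ± 0.11), *AT2G46420*, a helicase gene (-0.71 ± 0.12), *PKS1* (-0.61 ± 0.10) and *RAP2.7* (-0.55 ± 0.09).

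For *LHY* this difference came with a higher dark level in ΔC, while its red libraries in FL and ΔC overlapped. For *ABCI20* and *ABCI21* the dark libraries of the lines overlapped and the red libraries did not. *HY5* (-0.83 ± 0.14, adjusted p = 0.056, edgeR) and *BBX32* (-4.24 ± 0.79, adjusted p = 0.077, with 4 reads in all in FL dark) did not pass. With the replicate number as a block only *ABCI21*, *ABCI20*, *AT5G15950* and *AT3G12320* were called, and leaving out single libraries gave 3 to 12 calls (3 without FL dark replicate 1 or 3, ΔC dark replicate 2 or ΔC red replicate 1 or 2, 4 without FL red replicate 1 or ΔC dark replicate 3, and 5 without ΔC dark replicate 1).

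**Figure D4:**
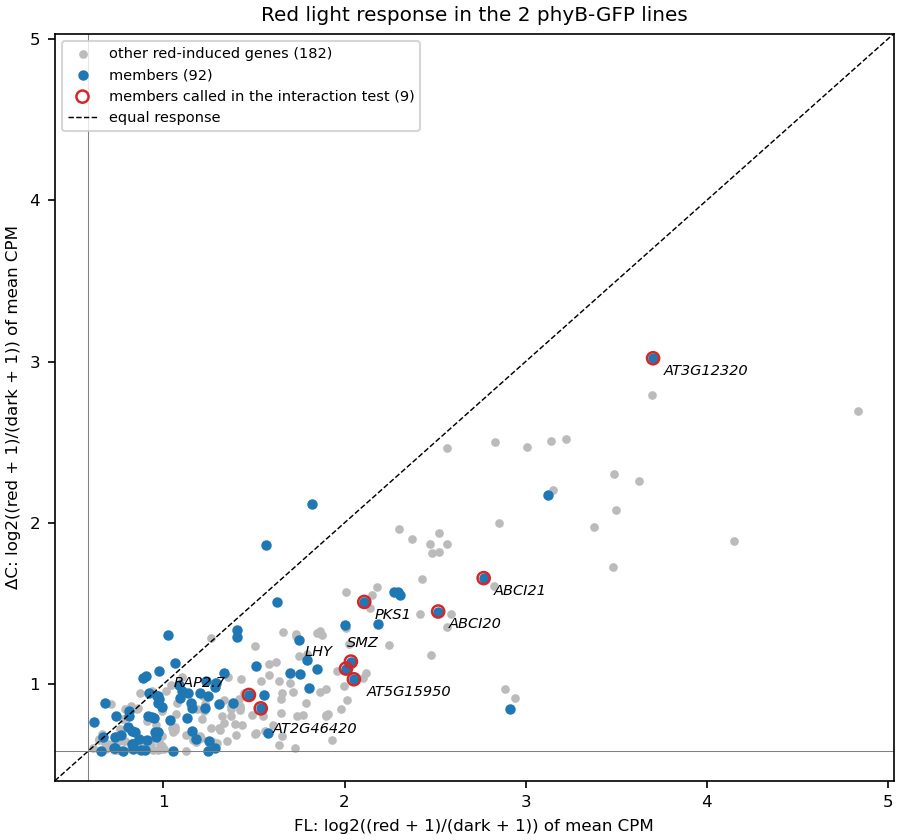
Each point is a gene that met the red light limits in both *phyB-GFP* lines, with its log2((red + 1)/(dark + 1)) in FL on the horizontal and in ΔC on the vertical axis. Grey lines mark the 1.5-fold limit and the dashed line equal responses. The 92 members (blue) and the other 182 genes (grey) lie mostly below the dashed line, and the 9 members called in the interaction test are ringed and named.

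By function the difference between the lines was uneven among the members. The interaction was negative in 14 of 14 light and clock regulators, with a median of -0.74 and 5 calls. It was negative in 9 of 14 genes of abscisic acid and stress, with a median of -0.06, a range of -0.28 to 0.30 and no call. Without FL red replicate 3 these medians were -0.65 and -0.10. In red light the ΔC and FL lines differed by a median of -0.53 in the former group and 0.03 in the latter. The 7 transporters had a median interaction of -0.27 and the 16 genes of metabolism and the cell wall one of -0.34. No test compared these groups, which were formed after the values were seen. The rule held the ΔC response at 1.5-fold or more, so a small FL response left little room for a negative interaction. The median FL log2 ratio was 1.93 for the light and clock regulators and 0.92 for the genes of abscisic acid and stress. Nothing is therefore read from the distance between these groups.

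The same groups also differed when the red light level of *cop1-4* and *spaQ* was set beside the dark level of the *phyB-GFP* lines. These are different genotypes, and the dark levels of the mutants themselves were not analysed here. All of these values entered the rule, so the comparison is no separate support for the groups. The ratio also holds the response to red light as a part, which was smaller in the abscisic acid group. In 40 members both mutant means were above both dark means, in 34 both were below, and in 18 neither held. Among the light and clock regulators 12 of 14 were above and *RVE2* alone below, with a median log2 ratio of 1.44. Among the genes of abscisic acid and stress 3 of 14 were above and 9 below, with a median of -0.44. With TMM factors for all 21 libraries, chosen after seeing the data, the counts were 47 above and 26 below over all members, 12 and 1 in the former group and 3 and 6 in the latter. Examples of members below both dark means were *HVA22D*, a stress-inducible gene, with 6.90 and 7.82 CPM in *cop1-4* and *spaQ* against 18.8 and 18.4 CPM in FL and ΔC dark, and *HB-7*, a homeodomain gene of the water deficit response, with 5.37 and 5.74 against 14.0 and 16.5 CPM.

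**Figure D5:**
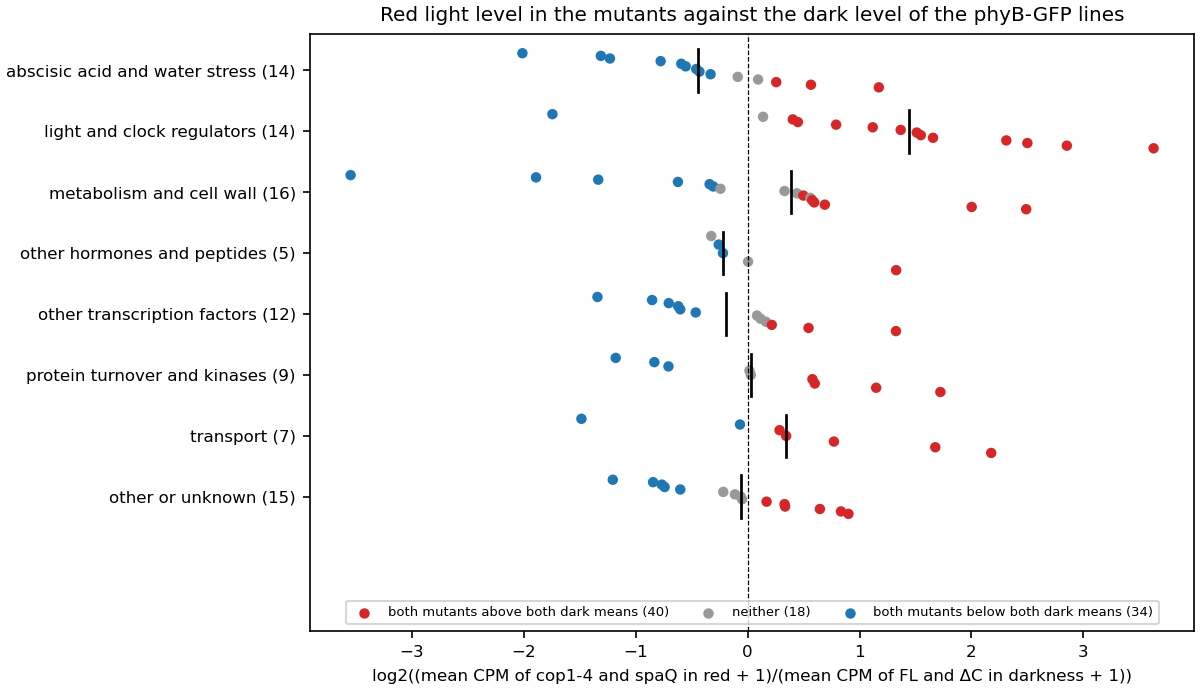
Each point is a member, placed by log2 of the mean CPM of *cop1-4* and *spaQ* in red light plus 1 over the mean CPM of FL and ΔC in darkness plus 1, in rows by known function with the median as a line. Red points have both mutant means above both dark means, blue points have both below and grey points neither. The median is at 1.44 for light and clock regulators and at -0.44 for genes of abscisic acid and water stress.

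The members were spread over the 5 chromosomes, with 26, 11, 22, 15 and 18 on chromosomes 1 to 5. In 3 pairs the genes were less than 20000 bases apart. *AT5G58750* (chromosome 5, 23728588 to 23730142) and *DDB2* (23730450 to 23733707) are separated by 307 bases, *EXPA10* and *AT1G26790*, a Dof zinc finger gene, by 12370 bases on chromosome 1, and *RVE2* and *WSD1* by 14337 bases on chromosome 5. *RVE2* and *WSD1* were both below every dark library in the mutants. The gene models of 20 members overlap a gene on the opposite strand, among them *PKS1*, *SMZ*, *AT3G12320*, *ABF3*, *GBF3*, *COL2* and *APR2*. The strand setting of the read counting is not given in the sources used here, so their counts may include reads of the neighbour.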

How the data were processed

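Whole-seedling mRNA was sequenced in 21 libraries, 3 per group. Per the submitters' processing notes, TopHat, Bowtie2 and HTSeq were used with the TAIR10 genome, and the authors deposited raw counts per gene, without normalization. The strand setting of the counting is not given in the sources used here. Of 33655 features, 32548 are loci that matched RefSeq TAIR10.1, from which symbols, coordinates and sequences were taken.

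CPM was computed from column totals. The members and the gene lists were chosen with earlier results of these data known. The tests used edgeR 4.0.16 under R 4.3.3 (TMM, filterByExpr, quasi-likelihood test, Benjamini-Hochberg adjustment), in 1 fit of the 9 libraries of Col-0, *cop1-4* and *spaQ* (20396 genes) and 1 of the 12 *phyB-GFP* libraries (20459 genes). All 92 members passed the filter in both fits. Genes were called at an adjusted p under 0.05 with a change over 2-fold for *spaQ* against *cop1-4* and over 1.5-fold between the *phyB-GFP* lines. The interaction had no fold limit. Standard errors were derived from the test statistic of the fitted model. Both fits were also run on counts simulated from the fitted spread. The planted changes were larger than the interaction differences called here, so the recovery of differences of that size was not tested.

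Genes named: the 10 members with the highest Col-0 CPM, the 10 with the largest mean absolute ratio, the 3 nearest each side of each limit, members of a list, and the 5 with the smallest adjusted p among those called in each test. Alternatives were other size factors, other filters, DESeq2 1.42.0, 1 fit of 21 libraries, the replicate block, dropping the fold limit or each library in turn, and for the rule other constants, minima and scaling. Floors of 3 counts cover counting error only. Same-numbered libraries are not stated to be paired.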

Additional observations from a re-analysis of the deposited data

Results flagged for a closer look

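The following members responded differently to red light in the FL and ΔC lines, by edgeR's interaction test. On the log2 scale the response in ΔC minus that in FL was -1.13 for *ABCI21*, -1.09 for *ABCI20*, -1.04 for *AT5G15950*, -0.93 for *LHY*, -0.72 for *AT3G12320*, -0.94 for *SMZ*, -0.55 for *RAP2.7*, -0.61 for *PKS1* and -0.71 for *AT2G46420*. Over all alternatives the largest adjusted p was 0.021 for *ABCI21*, 0.026 for *ABCI20* and 0.030 for *AT5G15950*, and between 0.081 and 0.19 for the other 6. No single value was screened for distance from its group, since groups held 3 libraries each.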

How the results depend on the processing

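The 11 members called between *spaQ* and *cop1-4* kept their direction and call wherever they were tested. A minimum of 10 counts in every library removed *PAP1*, *GA2OX8* and *AT2G25150* from the test and left 5 higher and 3 lower, and leaving out a library gave 7 to 8 higher and 4 to 5 lower. Without a fold limit, 33 were higher and 32 lower. In darkness ΔC was higher than FL in 3 members, and in 5 by DESeq2, in 1 fit of 21 libraries and without a fold limit (1 to 4 when a library was left out). The lowest count among the other settings was 2, where *DDB2* did not pass (adjusted p = 0.068, edgeR). In red light ΔC was lower in 10, and in 24 without a fold limit (8 to 12 when a library was left out). It was higher in none, but in 1 with every gene counted or no fold limit and in 2 with 1 fit of 21 libraries or DESeq2 (0 to 1 when a library was left out). The interaction gave 9 members, 4 with the replicate block, 21 with 1 fit of 21 libraries, 19 by DESeq2 and 3 to 12 when a library was left out. The cause was not tested.

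Same-numbered libraries did not deviate together. The correlation of their deviations ranged from -0.40 to 0.28 over 27 pairs, with 4 above 0.1. Between differently numbered libraries of different groups it reached 0.398, for FL dark replicate 2 and FL red replicate 3. The mean was -0.014 for same-numbered pairs and 0.007 for the others. Whether libraries share a deviation that does not follow the replicate number was not tested. The block moved the other counts of members called by no more than 1.5 times. The rule gave 80 members with TMM factors (79 shared with the 92), 73 to 99 with other constants and minima, 88 to 96 when a library was left out, and 48 when every same-numbered pair had to meet the limits. No result reversed its direction in any alternative. Members at a few reads, such as *BBX30* and *BBX32* in darkness, are limited by depth.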
